A study of Mus musculus with 17 samples.

Results

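The respiratory chain genes of the mouse were followed across both genomes that encode them. The genes were taken by name from the count tables: nuclear symbols that begin with Nduf and a subunit letter, Uqcr, Cox4 to Cox8 or Atp5, and mitochondrial symbols of the mt-Nd, mt-Co, mt-Cytb and mt-Atp kind, with named pseudogenes left out. This gave 93 of 52850 gene symbols, of which 80 are nuclear and 13 are encoded by mitochondrial DNA. Among the nuclear genes, 37 belong by name to complex I, 8 to complex III, 18 to complex IV and 17 to complex V. Among the mitochondrial ones, 7 belong to complex I, 1 to complex III, 3 to complex IV and 2 to complex V. The rule reads names alone, but it was set with earlier results of these data known.

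The RNA-seq samples were 12 bulk mouse libraries in 4 groups. YAP-M (4 libraries) is brain tumour tissue that followed in utero electroporation of the YAP-M fusion construct into the embryonic brain. YMdIDR (3 libraries) carries YAP-M without its intrinsically disordered region. Its labels name both brain tumour tissue and neural progenitor cells derived from embryonic stem cells. The labels alone thus do not settle the kind of sample, and its marker levels are given below. NSC-YAP (2 libraries) is cultured neural progenitor cells, derived from embryonic stem cells, that overexpress YAP and were kept in medium with EGF, basic FGF and heparin. SVZ (3 libraries), the subventricular zone, is called wild-type by its treatment label and brain tumour by its tissue label, while the extraction protocol speaks of normal brain; it served as the unmanipulated group. YAP-M, YMdIDR and NSC-YAP, which carry a YAP fusion or overexpress YAP, are called the YAP groups below. No tumour or culture without such a construct was among the libraries. In comparisons with SVZ, construct and kind of sample thus cannot be told apart. Strain, age and the number of animals or cultures behind a group were not given in the sources used here. Whether replicates are separate animals is likewise unstated, so p-values measure the spread between these libraries, which may be technical.

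The respiratory chain passes electrons from NADH and succinate to oxygen through complexes I to IV of the inner mitochondrial membrane, pumps protons, and lets complex V, the ATP synthase, make ATP from the proton gradient. Complexes I, III, IV and V are built from subunits of both genomes, and complex II from nuclear subunits alone. The mitochondrial subunits form hydrophobic membrane cores that are transcribed inside the organelle as long polycistronic RNAs, while each nuclear subunit has its own promoter and is imported as protein. Neurons and other cells with high ATP demand are known for large amounts of these complexes.

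Library totals ranged from 20668383 to 25339837 counts. All 13 mitochondrially encoded members and 76 of the 80 nuclear ones reached 1 CPM (counts per library scaled to the same library size) in at least 2 libraries and were tested; Cox7a1, Cox7b2, Cox8b and Cox8c, all of complex IV, did not. Every fit used all 12 libraries and 18320 genes (edgeR quasi-likelihood test, Benjamini-Hochberg adjustment over all of them), and a gene is called at an adjusted p under 0.05. The same groups recur in several of the 6 comparisons, so those comparisons are not independent of each other. In bulk libraries, fewer cells of a type and less RNA per cell cannot be told apart.

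Cell type markers differed widely between the 4 groups. All 10 neuron markers were called lower in YAP-M and in YMdIDR than in SVZ; their summed level was 303 to 722 CPM in YAP-M, 471 to 513 CPM in YMdIDR, 814 to 890 CPM in NSC-YAP and 5157 to 5540 CPM in SVZ. All 8 oligodendrocyte markers were also called lower in YAP-M and YMdIDR than in SVZ and 6 of 8 in NSC-YAP, with sums of 674 to 3377 CPM in YAP-M, 364 to 1319 CPM in YMdIDR, 2253 to 2358 CPM in NSC-YAP and 28976 to 34754 CPM in SVZ. The other 2, Olig1 and Olig2, were called higher in NSC-YAP than in SVZ and held most of the NSC-YAP sum. Olig1 had 1584 and 1513 CPM in NSC-YAP and 346 to 353 CPM in SVZ. Olig2 had 627 and 592 CPM in NSC-YAP and 100 to 118 CPM in SVZ. In NSC-YAP 8 of the 10 neuron markers were lower, with Stmn2 and the oligodendrocyte marker Mag at 0 in replicate 1. Dcx was called higher there, with 52.5 and 58.8 CPM in NSC-YAP and 34.0 to 41.7 CPM in SVZ. Map2, with 658 and 725 CPM, held most of the neuron sum in NSC-YAP. The 8 microglia and macrophage markers were all called higher in YAP-M and in YMdIDR than in SVZ, at 2163 to 3195 CPM in YAP-M, 2712 to 3428 CPM in YMdIDR and 340 to 443 CPM in SVZ. In NSC-YAP they summed to 41.8 and 44.4 CPM, with Aif1 and Cx3cr1 at 0 in replicate 1, and the endothelial marker Cldn5 was at 0 in both NSC-YAP libraries. Cd68 held 39.5 and 40.1 CPM of these microglia and macrophage sums and was called higher than in SVZ (13.6 to 14.9 CPM). The other 7 microglia and macrophage markers were called lower in NSC-YAP than in SVZ. On the sums of this list YMdIDR stood near YAP-M and far above NSC-YAP. The 6 cycling markers were all called higher in each of the 3 groups than in SVZ, at 521 to 740 CPM in YAP-M, 400 to 860 CPM in YMdIDR and 595 to 612 CPM in NSC-YAP, against 37.5 to 56.3 CPM in SVZ. These marker levels differ between the same groups that are compared with SVZ below, and their part in those results was not tested.

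By their share of counts, transcripts from mitochondrial DNA were less abundant in all 3 YAP groups than in SVZ. The 13 genes took 4.93%, 4.76%, 6.23% and 5.67% of all counts in the 4 YAP-M libraries, 5.71%, 5.47% and 5.89% in YMdIDR, 6.97% and 6.89% in NSC-YAP, and 11.9%, 11.3% and 15.2% in SVZ. Every SVZ library lay above every other library, and SVZ replicate 3 stood highest. The group means were 5.40% ± 0.681 in YAP-M (SD, n = 4), 5.69% ± 0.210 in YMdIDR (n = 3), 6.93% ± 0.0570 in NSC-YAP (n = 2) and 12.8% ± 2.12 in SVZ (n = 3). The nuclear members together took far less: 0.652 to 0.698% of counts in YAP-M, 0.710 to 0.730% in YMdIDR, 1.04% and 0.965% in NSC-YAP, and 0.766 to 0.850% in SVZ. Counts of mitochondrially encoded over nuclear members came to 6.999 to 8.92 in YAP-M, 7.71 to 8.18 in YMdIDR, 6.73 and 7.14 in NSC-YAP, and 14.0 to 19.9 in SVZ. On this ratio the 3 YAP groups lay close together and below all SVZ libraries.

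**Figure D1:**
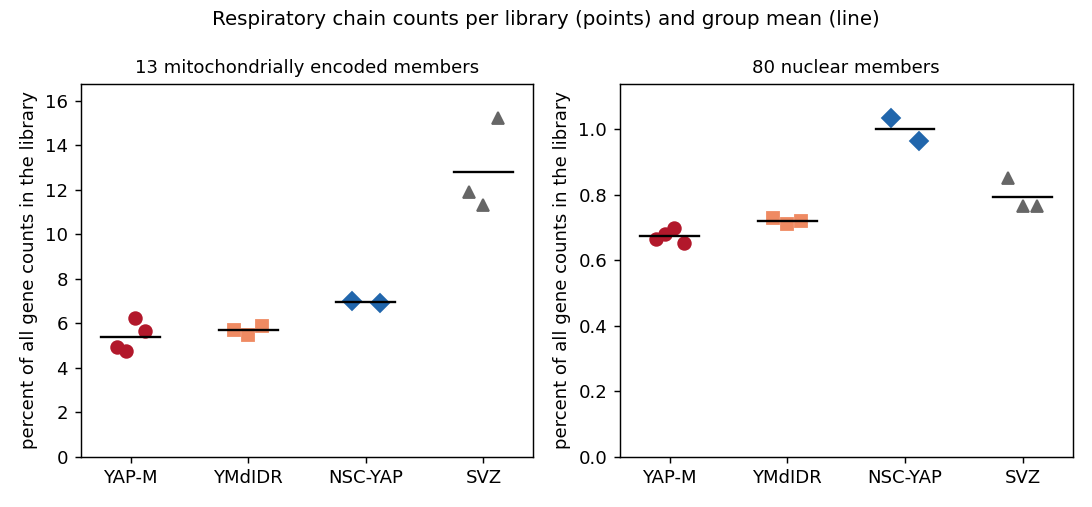
Share of all gene counts taken by the 13 mitochondrially encoded members (left) and by the 80 nuclear members (right), in percent, with 1 point per library and the group mean as a line. The mitochondrially encoded share is 4.76 to 6.97% in the YAP-M, YMdIDR and NSC-YAP libraries and 11.3 to 15.2% in SVZ, while the nuclear share is highest in NSC-YAP.

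In YAP-M, 13 of 13 mitochondrially encoded members were called lower than in SVZ, against 41.0% of all genes tested; in YMdIDR, 13 of 13 against 39.5%; and in NSC-YAP, 13 of 13 against 35.5%; with quantile normalization, which sets genes of equal rank to equal values, 6, 7 and 6 of 13 were called lower, and the sign turned for mt-Co2 in all 3 comparisons, for mt-Cytb in YAP-M and NSC-YAP, and for mt-Nd5 in NSC-YAP. No member was called higher than SVZ in any of them by edgeR, DESeq2 or limma, nor at an unadjusted p under 0.05 by edgeR. Quantile normalization gives no change for a gene that keeps its rank in every library, whatever its level. It thus cannot show a decrease that leaves the rank in place. The call of mt-Nd5 in NSC-YAP was lost without NSC-YAP replicate 1 and without replicate 2. The median log2 fold change was -1.62 in YAP-M, -1.42 in YMdIDR and -1.22 in NSC-YAP, against -0.04, -0.00 and -0.10 over all genes tested. At least 2-fold lower were 13, 13 and 9 members, while 28.9%, 29.6% and 27.6% of all genes tested passed that rule.

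**Figure D2:**
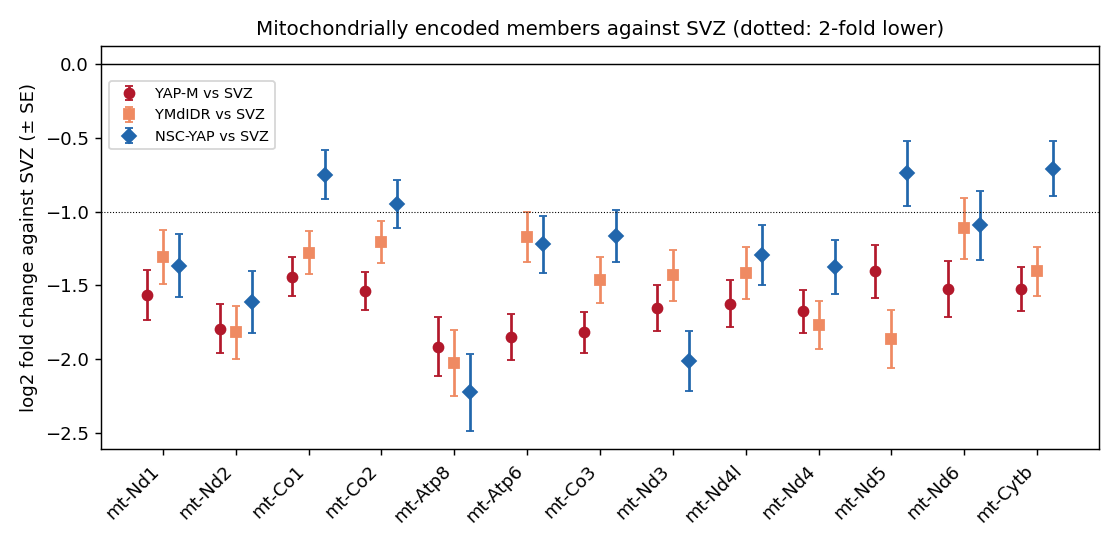
Log2 fold change against SVZ (vertical axis, ± SE) of each mitochondrially encoded member, in the gene order of the mitochondrial genome, for YAP-M, YMdIDR and NSC-YAP. All 39 values lie below 0, from -2.23 (mt-Atp8 in NSC-YAP) to -0.71 (mt-Cytb in NSC-YAP). With quantile normalization, which sets genes of equal rank to equal values, 6 of them turn in sign, for mt-Co2, mt-Cytb and mt-Nd5.

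Of the subunits of complex IV made in the organelle, mt-Co1, the catalytic subunit that binds oxygen, was the most abundant member in counts. It had 13400, 13418, 14792 and 15597 CPM in YAP-M, 14949, 15668 and 17340 CPM in YMdIDR, 23271 and 22937 CPM in NSC-YAP, and 35916, 32548 and 47967 CPM in SVZ. No library of the 3 YAP groups reached any SVZ library, and NSC-YAP lay above both other YAP groups. Its log2 fold change against SVZ was -1.44 ± 0.13 (SE) in YAP-M, -1.28 ± 0.15 in YMdIDR and -0.75 ± 0.16 in NSC-YAP, with adjusted p of 2.3e-06, 1.03e-05 and 0.00189. mt-Co2, which takes electrons from cytochrome c, and mt-Co3, a core subunit without redox centres, had log2 fold changes of -1.54 and -1.82 in YAP-M, -1.21 and -1.46 in YMdIDR, and -0.95 and -1.16 in NSC-YAP. By quantile normalization mt-Co1 came out at 0 in each of the 3 comparisons, and mt-Co2 at 0.0697, 0.0682 and 0.0558. That method gives 0 to a gene that keeps its rank in every library, whatever its level.

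The 2 mitochondrially encoded subunits of the ATP synthase are read from overlapping genes, mt-Atp8 (chrM:7766-7969, mm10) and mt-Atp6 (chrM:7927-8607). Reads in the overlap could belong to either. mt-Atp6 had 4319, 4484, 5937 and 5047 CPM in YAP-M, 7683, 7935 and 8151 CPM in YMdIDR, 7776 and 7516 CPM in NSC-YAP, and 15392, 15232 and 22860 CPM in SVZ. YAP-M was lowest and did not overlap any other group, whereas YMdIDR and NSC-YAP overlapped each other. mt-Atp6 was called lower in YAP-M than in YMdIDR (log2 fold change -0.68 ± 0.16, adjusted p 0.00525), the single one of the 13 genes called between those groups by edgeR. Without SVZ replicate 3, 2 were called lower. mt-Atp8 had 1028, 1019, 1360 and 1087 CPM in YAP-M, 947, 1049 and 1122 CPM in YMdIDR, 931 and 881 CPM in NSC-YAP, and 3152, 3528 and 6034 CPM in SVZ. The 3 YAP groups stood near each other for mt-Atp8 and well under SVZ, with log2 fold changes of -1.92, -2.03 and -2.23.

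For complex I, whose mitochondrial ND subunits form the proton-pumping membrane arm, the 7 genes had median log2 fold changes against SVZ of -1.62 in YAP-M, -1.43 in YMdIDR and -1.37 in NSC-YAP. mt-Nd5, the subunit at the far end of that arm, had 2570, 2010, 3286 and 2710 CPM in YAP-M, 1920, 1760 and 2090 CPM in YMdIDR, 4129 and 4269 CPM in NSC-YAP, and 5947, 6043 and 9018 CPM in SVZ. YMdIDR was lowest, overlapping YAP-M by 1 library, and NSC-YAP lay between both and SVZ. Between YMdIDR and NSC-YAP it gave the largest difference of the 13 genes, with a log2 fold change of -1.13 ± 0.21 and an adjusted p of 0.00065. mt-Nd3 went the other way in that pair: it had 507, 651 and 579 CPM in YMdIDR and 411 and 363 CPM in NSC-YAP, with a log2 fold change of 0.58 ± 0.19 and an adjusted p of 0.0184. Without NSC-YAP replicate 2 the mt-Nd3 call was lost. mt-Nd6, the single member on the other strand of the mitochondrial genome, had log2 fold changes of -1.52, -1.11 and -1.09 against SVZ in YAP-M, YMdIDR and NSC-YAP. In YMdIDR its decrease was the smallest of the 13, next to -1.17 for mt-Atp6. mt-Nd1, mt-Nd2, mt-Nd4 and mt-Nd4l had -1.57, -1.80, -1.68 and -1.62 in YAP-M, -1.31, -1.82, -1.77 and -1.42 in YMdIDR, and -1.37, -1.61, -1.38 and -1.29 in NSC-YAP; mt-Nd4l and mt-Nd4 overlap by a few bases.

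mt-Cytb, the cytochrome b of complex III, had 3986, 3627, 4959 and 4254 CPM in YAP-M, 4283, 4697 and 4730 CPM in YMdIDR, 7347 and 7478 CPM in NSC-YAP, and 10799, 10125 and 15378 CPM in SVZ. NSC-YAP again held an intermediate place that overlapped no other group. Its log2 fold change was -1.52 ± 0.15 for YAP-M against SVZ and -0.71 ± 0.19 for NSC-YAP against SVZ (0.0794 and 0.262 by quantile normalization), and -0.82 ± 0.17 for YAP-M against NSC-YAP (adjusted p 0.00105).

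Between the YAP groups the mitochondrially encoded genes differed less. YAP-M against YMdIDR gave 0 higher and 1 lower of 13, with 20.6% and 22.9% of all genes tested called in those directions; 1 member was higher at an unadjusted p under 0.05, DESeq2 gave 1 higher and 1 lower, and quantile normalization gave 3 higher and 0 lower. YAP-M against NSC-YAP gave 0 higher and 6 lower (mt-Co1, mt-Co2, mt-Co3, mt-Atp6, mt-Nd5 and mt-Cytb), beside a background of 38.4% and 34.5%, and there quantile normalization gave 3 higher and 0 lower; no member was higher at an unadjusted p under 0.05 by edgeR and 1 was by DESeq2. YMdIDR against NSC-YAP gave 1 higher (mt-Nd3) and 3 lower (mt-Co1, mt-Cytb and mt-Nd5), beside 37.5% and 31.6%. Without SVZ replicate 3, 2 members were called higher for YAP-M against NSC-YAP and 5 lower for YMdIDR against NSC-YAP. A single member was called higher for YAP-M against YMdIDR without YAP-M replicate 2 or any 1 SVZ library, and for YAP-M against NSC-YAP without SVZ replicate 2. Without NSC-YAP replicate 2 the mt-Nd5 call for YAP-M against NSC-YAP was lost, and without either NSC-YAP library the mt-Co1 call for YMdIDR against NSC-YAP was lost. Quantile normalization also lost that mt-Co1 call. With all 12 libraries in the fit, the shares called for YAP-M against YMdIDR and for YMdIDR against NSC-YAP were no larger than those of all genes tested; some counts under the settings in the closing section are larger.

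The make-up of the mitochondrially encoded counts also varied. mt-Atp6 made up 10.2% of them in YAP-M (9.69 to 10.7%), 14.1% in YMdIDR (13.9 to 14.5%), 10.7% in NSC-YAP (10.6 to 10.7%) and 12.04% in SVZ (11.5 to 12.4%). YMdIDR was above every other library on this share. mt-Nd5 made up 5.41% in YAP-M, 3.43% in YMdIDR, 5.85% in NSC-YAP and 4.73% in SVZ, so that YMdIDR was lowest. mt-Nd3 made up 1.03% in YAP-M, 1.03% in YMdIDR, 0.539% in NSC-YAP and 1.053% in SVZ, and mt-Atp8 2.31% in YAP-M, 1.85% in YMdIDR, 1.26% in NSC-YAP and 2.82% in SVZ. For both genes NSC-YAP was lowest, with no overlap. Per kilobase of gene model, the highest levels in SVZ were those of mt-Atp6 (26179 CPM per kb) and mt-Co1 (25120 CPM per kb), and the lowest that of mt-Nd5 (3839 CPM per kb); in YAP-M mt-Co1 led with 9257 CPM per kb, and mt-Nd3 (1426 CPM per kb) was lowest.

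**Figure D3:**
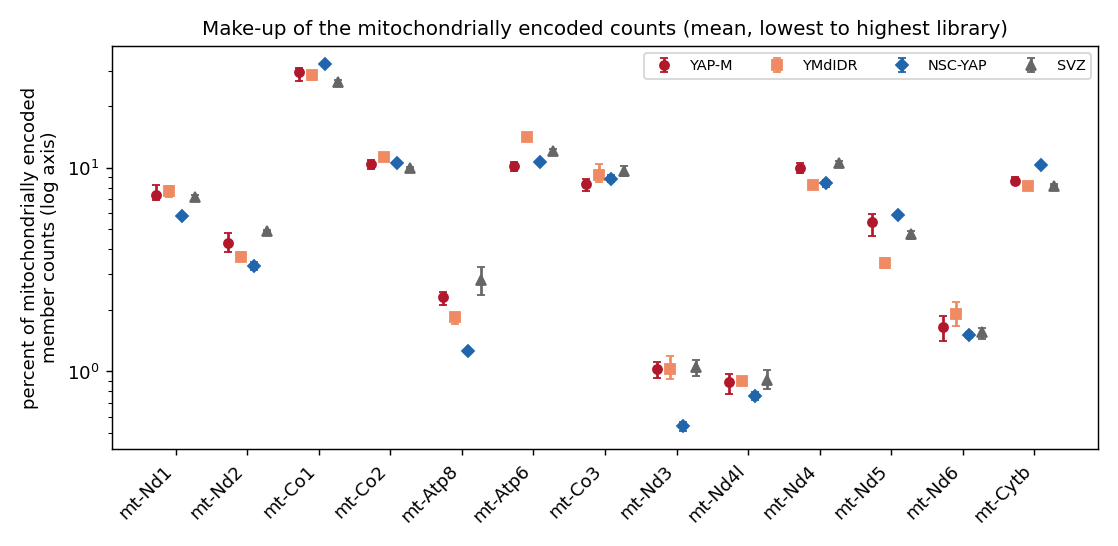
Share of each gene among the counts of the 13 mitochondrially encoded members (percent, log axis), as the group mean with a bar from the lowest to the highest library. mt-Co1 takes 26.3 to 32.2% on average in each group, mt-Atp6 is highest in YMdIDR (14.1%), and mt-Nd3 is lowest in NSC-YAP (0.539%).

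Some of these counts appear more than once in the tables. A stretch of chromosome 1 (chr1:24611535-24616197, mm10) holds 7 predicted genes that copy mitochondrial DNA, and the counts of Gm10222 were 0.998 to 1.004 times those of mt-Nd4l, with Gm28437 and mt-Co3, and Gm28661 and mt-Co2, closer still. These 7 genes held 2.44 to 3.11% of counts in YAP-M, 3.06 to 3.27% in YMdIDR, 3.38 and 3.52% in NSC-YAP, and 6.002 to 8.06% in SVZ, and they enter the library totals. As a share of nuclear-encoded counts, the mitochondrially encoded members averaged 5.90% in YAP-M, 6.26% in YMdIDR, 7.75% in NSC-YAP and 16.4% in SVZ, and the nuclear members 0.736% in YAP-M, 0.792% in YMdIDR, 1.12% in NSC-YAP and 1.01% in SVZ. The mitochondrial ribosomal RNAs, which are not members, took 0.169 to 0.302% of counts in YAP-M, 0.108 to 0.194% in YMdIDR, 0.107 and 0.0981% in NSC-YAP, and 1.39 to 1.80% in SVZ.

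Most nuclear respiratory chain genes were called lower in YAP-M tumours than in SVZ. Of the 76 tested, 66 (86.8%) were called lower and 2 higher, where 41.0% and 38.0% of all genes tested were called in those directions. The median log2 fold change was -0.66, against -0.04 over all genes tested, so the typical change was small: 17 members were at least 2-fold lower and 1 at least 2-fold higher, beside 28.9% and 25.8% of all genes tested. The summed level was 6020, 6201, 6198 and 5894 CPM in YAP-M and 9555, 8459 and 9289 CPM in SVZ. Every YAP-M library lay under every SVZ library. By complex, 34 of 37 members of complex I were called lower, 6 of 8 of complex III, 11 of 14 of complex IV and 15 of 17 of complex V.

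In complex I, the 7 nuclear core subunits, which carry the flavin and the iron-sulphur clusters, were called about as often as the accessory ones: 6 of 7 were lower, with a median log2 fold change of -0.66, and 28 of 30 others, with a median of -0.68. Ndufb2, an accessory subunit of the membrane arm, had the largest change among members of complex I, with 5.82, 4.998, 5.76 and 6.28 CPM in YAP-M and 27.2, 20.2 and 24.4 CPM in SVZ. The groups were far apart (log2 fold change -2.07 ± 0.15, adjusted p 4.08e-07). Ndufb2, and Uqcr11 and Atp5g1 below, were picked by a rule that asks for groups without overlap, so their separation was set by the choice.

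In complex III, Uqcr11, a small accessory subunit, led. It had 29.9, 29.6, 32.8 and 31.5 CPM in YAP-M and 96.5, 78.9 and 95.9 CPM in SVZ. YAP-M was uniformly low, with a log2 fold change of -1.55 ± 0.14 and an adjusted p of 1.51e-06. In complex V, Atp5g1, 1 of 3 genes for subunit c of the rotor ring, had 40.2, 45.5, 47.0 and 53.5 CPM in YAP-M and 152, 131 and 128 CPM in SVZ. The log2 fold change was -1.56 ± 0.11 (adjusted p 2.77e-07), and no YAP-M library came near SVZ. In complex IV, Cox8a, a small subunit of the enzyme in most tissues, had 115, 116, 130 and 111 CPM in YAP-M and 297, 255 and 300.5 CPM in SVZ (log2 fold change -1.27 ± 0.10, adjusted p 9.21e-07). Cox6a1, the broadly expressed partner of Cox6a2, had a log2 fold change of -1.12 ± 0.11, and Cox4i1, which joins early in assembly, -0.70 ± 0.10.

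The 2 members called higher in YAP-M were Atp5g2 and Cox6b2. Cox6b2, the testis-type form of subunit 6b, had 12.7, 10.8, 10.1 and 8.56 CPM in YAP-M and 3.66, 3.39 and 4.03 CPM in SVZ. The groups did not overlap, but the adjusted p was 0.0490 (log2 fold change 1.51 ± 0.64), and the call was lost when any of 8 single libraries was left out. Atp5g2 is described with its sister genes below. The number of members higher was 1 or 0 without any 1 of 7 libraries (YAP-M replicates 1, 2 and 3, both NSC-YAP, and SVZ replicates 2 and 3).

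**Figure D4:**
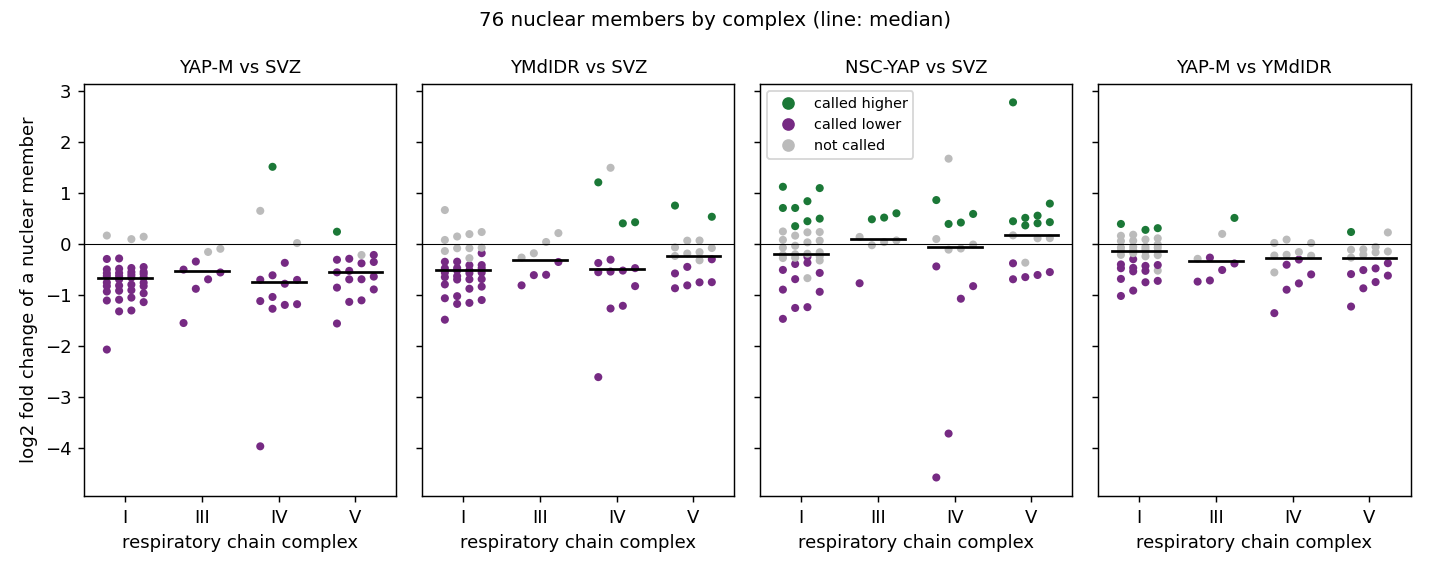
Log2 fold change (vertical axis) of each of the 76 tested nuclear members, grouped by complex, in 4 comparisons, with the median as a line and the colour giving the call. Against SVZ, 66 members are called lower in YAP-M and 48 in YMdIDR, while NSC-YAP has 23 higher and 22 lower; in YAP-M against YMdIDR 32 are lower and 5 higher.

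YMdIDR, the fusion without its disordered region, lay between YAP-M and SVZ. Of 76 nuclear members, 48 (63.2%) were called lower than in SVZ and 5 (6.58%) higher, where 39.5% and 39.0% of all genes tested were called; the median log2 fold change was -0.46, against -0.00 over all genes tested. At least 2-fold lower were 9 and higher 1, beside 29.6% and 26.9%. The summed level was 7053, 7122 and 7109 CPM in YMdIDR and 8459 to 9555 CPM in SVZ. No YMdIDR library reached the SVZ range. Complex I had 27 of 37 lower, complex III 4 of 8, complex IV 10 of 14 and complex V 7 of 17, the last beside a background of 39.5%. The members called higher were Atp5d, Atp5g2, Cox4i2, Cox5a and Cox7a2l. The number higher was 8 without YAP-M replicate 1 or YMdIDR replicate 2, and 3 without SVZ replicate 3.

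Of the members of complex I, Ndufa5, an accessory subunit of the peripheral arm, had the largest decrease, with 23.5, 21.0 and 19.1 CPM in YMdIDR and 60.7, 49.6 and 67.8 CPM in SVZ (log2 fold change -1.48 ± 0.16, adjusted p 5.51e-06). It was as low in the other YAP groups, at 19.9 to 27.7 CPM in YAP-M and 21.7 and 21.2 CPM in NSC-YAP. Its log2 fold change against SVZ was -1.47 ± 0.18 in NSC-YAP. Among core subunits of complex I, Ndufs1, the largest iron-sulphur subunit, had 53.2, 60.4 and 64.2 CPM in YMdIDR and 125, 125 and 121 CPM in SVZ, with a log2 fold change of -1.06 ± 0.09. Ndufs7, the subunit of the last iron-sulphur cluster, had 60.3, 44.4 and 36.4 CPM in YMdIDR and 58.1, 44.3 and 46.0 CPM in SVZ. Those groups overlap, and the 3 YMdIDR libraries differ widely from each other. Uqcr11 (log2 fold change -0.81 ± 0.15) and Atp5sl (-0.87 ± 0.15) led complexes III and V; Atp5sl carries an ATP synthase name but is not a structural subunit.

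NSC-YAP, the cultured progenitors, did not share the general decrease. Of 76 nuclear members, 23 (30.3%) were called higher than in SVZ and 22 (28.9%) lower, beside 30.1% and 35.5% of all genes tested, and the median log2 fold change was 0.01, against -0.10. These shares are close to the background. Without NSC-YAP replicate 1 the number higher was 13. The summed level was 10754 and 9960 CPM in NSC-YAP and 9555, 8459 and 9289 CPM in SVZ, so both NSC-YAP libraries lay above SVZ. By complex, the sum of complex V was 4660 and 4310 CPM in NSC-YAP and 3240 to 3579 CPM in SVZ. Complex V includes Atp5g2, with a log2 fold change of 2.77. The sum of complex III also lay above SVZ, while those of complexes I and IV overlapped SVZ. At least 2-fold higher were 3 and lower 6, beside 17.5% and 27.6%.

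Within this balance single subunits moved a long way. Ndufc2, an accessory membrane-arm subunit, had 134 and 116 CPM in NSC-YAP and 60.5, 57.0 and 55.2 CPM in SVZ (log2 fold change 1.12 ± 0.12, adjusted p 9.54e-06). Ndufa7, an accessory subunit of the peripheral arm, had 102 and 92.1 CPM in NSC-YAP and 48.9, 42.1 and 45.5 CPM in SVZ (1.09 ± 0.10). Both were clear of the SVZ range. Uqcrb, which binds ubiquinone in complex III, went the other way, with 74.2 and 63.6 CPM in NSC-YAP and 110, 108 and 134 CPM in SVZ (log2 fold change -0.77 ± 0.14, adjusted p 0.000567). Uqcrfs1, the Rieske iron-sulphur protein of the same complex, had 136 and 114 CPM in NSC-YAP and 85.5, 85.0 and 76.9 CPM in SVZ (0.60 ± 0.12). Subunits of 1 complex thus differed in direction.

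YAP-M and YMdIDR, with and without the disordered region, differed at many nuclear members. YAP-M against YMdIDR had 32 of 76 nuclear members lower (42.1%) and 5 higher (6.58%), beside 22.9% and 20.6% of all genes tested, with a median log2 fold change of -0.23, against 0.01. Most differences were small: 3 members were at least 2-fold lower, beside 6.78%, and the highest log2 fold change was 0.51, while 9.61% of all genes tested were at least 2-fold higher. The summed level was 5894 to 6201 CPM in YAP-M and 7053 to 7122 CPM in YMdIDR, with no overlap. Markers of other cells moved with this comparison. Of 6 tested muscle markers 4 were lower and 1 higher in YAP-M, and the sum of the list was 19.3 to 33.0 CPM in YAP-M against 283, 67.7 and 21.2 CPM in YMdIDR replicates 1, 2 and 3, with Ckm at 0 in YAP-M replicate 4 and YMdIDR replicate 1. All 5 endothelial markers were higher in YAP-M, at 145 to 212 CPM in YAP-M against 72.7 to 105 CPM in YMdIDR, and 5 of 6 astrocyte markers, at 1868 to 2788 CPM in YAP-M against 514 to 1656 CPM in YMdIDR. Most of the muscle sums in YMdIDR replicates 1 and 2 came from Actc1 (235 and 36.1 CPM) and Acta1 (37.1 and 23.2 CPM). Of the tested muscle markers, 1 was lower in YAP-M without overlap of the libraries. The part of muscle, endothelial or astrocyte cells in the differences was not tested.

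The 3 members at least 2-fold lower in YAP-M than in YMdIDR were Atp5d, Ndufa11 and Cox6a2. Atp5d (ENSMUSG00000003072, chr10:80138632-80145818, mm10), the delta subunit of the ATP synthase central stalk, had 98.0, 110, 99.9 and 102 CPM in YAP-M, 274, 231 and 214 CPM in YMdIDR, 298 and 274 CPM in NSC-YAP, and 180, 154 and 163 CPM in SVZ. It stood below SVZ in YAP-M and above SVZ in YMdIDR and NSC-YAP, and no library of these groups overlapped SVZ. Its log2 fold change was -1.23 ± 0.10 for YAP-M against YMdIDR (adjusted p 2.73e-05), -0.69 ± 0.10 for YAP-M against SVZ and 0.53 ± 0.11 for YMdIDR against SVZ. Ndufa11, an accessory subunit in the membrane arm of complex I, had 23.5, 31.4, 30.7 and 29.9 CPM in YAP-M and 67.7, 52.6 and 55.0 CPM in YMdIDR (-1.02 ± 0.13, adjusted p 0.000172). Cox8a had 111 to 130 CPM in YAP-M and 199 to 249 CPM in YMdIDR (-0.90 ± 0.10, adjusted p 0.000127), and Uqcr11 had 29.6 to 32.8 CPM in YAP-M and 40.8 to 63.7 CPM in YMdIDR (-0.74 ± 0.14, adjusted p 0.0016). Atp5d, Ndufa11, Cox8a and Uqcr11 were picked for this comparison by a rule that asks for groups without overlap. That their YAP-M libraries lay below all YMdIDR libraries was therefore set by the choice.

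The 5 nuclear members higher in YAP-M than in YMdIDR included Ndufs1, Ndufv2, Uqcrc2 and Atp5a1. Ndufs1 and Ndufv2 are core subunits of complex I, Uqcrc2 is a core protein of complex III and Atp5a1 is the alpha subunit of the ATP synthase head. Ndufv2, which carries an iron-sulphur cluster beside the flavin, had 74.0, 74.6, 80.3 and 72.1 CPM in YAP-M and 57.5, 57.9 and 56.9 CPM in YMdIDR (log2 fold change 0.39 ± 0.08, adjusted p 0.00236). Ndufs1 had a log2 fold change of 0.31 ± 0.08. Uqcrc2 had 119, 124, 115 and 117 CPM in YAP-M and 71.9, 85.2 and 93.4 CPM in YMdIDR (0.51 ± 0.09, adjusted p 0.00162), and Atp5a1 had 594, 599.6, 588 and 542 CPM in YAP-M and 451, 507 and 524 CPM in YMdIDR (0.23 ± 0.08, adjusted p 0.0410). In each of these the libraries of the groups did not overlap. The core subunits Ndufs7 and Ndufs8 of complex I were called lower (-0.68 and -0.48). The gene models of the 5 higher members had a median length of 2552 bases (1990 to 8086), those of the 32 lower members 1316 bases (545 to 6443) and those of the 39 others 1465 bases (419 to 4995). Across the 76 members the rank correlation of fold change with length was 0.21, and across all 18320 genes 0.18, so length moved with this comparison in members and background alike; its part was not tested. With only the YAP-M and YMdIDR libraries in the fit, or with no filter on low counts, 2 members were called higher, and Ndufs1 lost its call. The Atp5a1 call was lost under 10 of 22 alternatives.

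Against NSC-YAP both fusion groups had lower nuclear members. YAP-M had 56 of 76 lower (73.7%) and 2 higher, beside 34.5% and 38.4% of all genes tested, with a median log2 fold change of -0.68, against 0.10. YMdIDR had 43 lower (56.6%) and 6 higher, beside 31.6% and 37.5%, with a median of -0.42, against 0.13. At least 2-fold lower were 19 in YAP-M and 4 in YMdIDR, beside 21.6% and 20.4%, and at least 2-fold higher 1 and 3, beside 28.9% and 27.4%. The 2 higher in YAP-M were Cox4i2 and Ndufs6, and the 6 higher in YMdIDR were Cox4i2, Cox6a2, Ndufa4l2, Ndufa11, Ndufs6 and Uqcrb. The YMdIDR call of Cox6a2 (adjusted p 0.0314) was lost without YMdIDR replicate 1, without either NSC-YAP library and with the compared groups alone, and its sign turned by quantile normalization. That of Ndufa4l2 was lost without YMdIDR replicate 1, without either NSC-YAP library and by quantile normalization. All 7 core subunits of complex I were called lower than in NSC-YAP in both groups, although the call of Ndufv2 for YAP-M was lost under 18 of 22 alternatives. In complex I, Ndufa7 had the largest decrease against NSC-YAP in YAP-M, with a log2 fold change of -1.66 ± 0.10 (adjusted p 7.92e-08), and Ndufc2 in YMdIDR, with -1.46 ± 0.12 (adjusted p 1.05e-06). Uqcrfs1 (-0.95 ± 0.12) and Cox6c (-1.12 ± 0.14) led complexes III and IV in YMdIDR, and Uqcr11 (-1.61 ± 0.15) and Cox8a (-1.69 ± 0.11) in YAP-M. Without NSC-YAP replicate 2 the members higher were 1 in YAP-M and 2 in YMdIDR. Markers of other cells moved with both comparisons: all 8 microglia and macrophage markers and all 5 endothelial markers were called higher in YAP-M and in YMdIDR than in NSC-YAP. The endothelial markers summed to 145 to 212 CPM in YAP-M, 72.7 to 105 CPM in YMdIDR and 4.11 and 4.998 CPM in NSC-YAP, and the microglia and macrophage sums are those given above. Their part in the differences was not tested.

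Across the 3 comparisons with SVZ, which share their SVZ libraries, the calls fell into a few patterns. Of all genes tested, 41.0%, 39.5% and 35.5% were called lower in YAP-M, YMdIDR and NSC-YAP, and 38.0%, 39.0% and 30.1% higher. How many of all genes tested show each joint pattern was not counted, so the counts that follow only describe the members. Lower in YAP-M and YMdIDR and not called in NSC-YAP held 20 members, and lower in all 3 held 19. Lower in YAP-M, not called in YMdIDR and higher in NSC-YAP held 10, and lower in YAP-M alone 7. Lower in both fusion groups and higher in NSC-YAP held 6 (Atp5a1, Cox7c, Cox8a, Ndufc2, Ndufs8 and Ndufv3). Some of these calls lie near the threshold. Of 22 alternatives, Ndufs8 lost its YMdIDR call under 12 and its NSC-YAP call (adjusted p 0.0498) under 11, Atp5a1 its YAP-M call under 17, and Ndufc2 its YAP-M call under 14 and its YMdIDR call under 4. Cox7c lost its YMdIDR call under 6, Cox8a its YMdIDR call under 3 and its NSC-YAP call under 2, and Ndufv3 its NSC-YAP call under 1. Atp5d and Cox5a were lower in YAP-M and higher in the other 2 groups; Cox5a lost its call under 11 alternatives in YAP-M, 2 in YMdIDR and 5 in NSC-YAP. Atp5g2 was the single nuclear member called higher in all 3.

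The make-up of the c subunits of the ATP synthase by isoform differed between groups. Atp5g1, Atp5g2 and Atp5g3 encode the same mature protein behind different mitochondrial targeting peptides. Atp5g2 (ENSMUSG00000062683, chr15:102662864-102672352, minus strand, mm10) had 82.2, 97.0, 92.5 and 85.7 CPM in YAP-M, 116, 129 and 137 CPM in YMdIDR, 551 and 481 CPM in NSC-YAP, and 80.1, 72.3 and 74.8 CPM in SVZ. NSC-YAP stood far above the other groups, and no group overlapped another. Its log2 fold change against SVZ was 0.24 ± 0.10 in YAP-M (adjusted p 0.0375), 0.75 ± 0.10 in YMdIDR (4e-05) and 2.77 ± 0.11 in NSC-YAP (2.32e-08), the last the largest increase of any nuclear member in that comparison. The YAP-M call was lost without YAP-M replicate 2, without SVZ replicate 2 and with the replicate number as a block. It was also the member of complex V with the largest difference for YAP-M against NSC-YAP (-2.53 ± 0.10) and for YMdIDR against NSC-YAP (-2.02 ± 0.11). Atp5g1 (ENSMUSG00000006057, chr11:96068852-96075670, minus strand) went the other way: it had 40.2 to 53.5 CPM in YAP-M, 73.0 to 83.3 CPM in YMdIDR, 89.0 and 80.7 CPM in NSC-YAP, and 128 to 152 CPM in SVZ. Atp5g3 (ENSMUSG00000018770, chr2:73908447-73911326, minus strand) had 108, 117, 141 and 112 CPM in YAP-M, 124, 139 and 152 CPM in YMdIDR, 206 and 187 CPM in NSC-YAP, and 167, 143 and 129 CPM in SVZ, with overlap among all groups but NSC-YAP. Its call as lower in YAP-M than in SVZ (-0.29 ± 0.12, adjusted p 0.0468) was lost under 18 of 22 alternatives. Per length of gene model, Atp5g2 made up 45.4% ± 2.20 of the 3 genes together in YAP-M (SD, n = 4), 48.9% ± 0.652 in YMdIDR (n = 3), 74.1% ± 0.578 in NSC-YAP (n = 2) and 32.3% ± 1.86 in SVZ (n = 3). Atp5g1 made up 8.08% in YAP-M, 10.3% in YMdIDR, 4.16% in NSC-YAP and 19.9% in SVZ.

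The promoter windows of the 3 genes for subunit c are shown because their transcripts, which encode 1 mature protein, moved in different directions against SVZ, Atp5g2 up and Atp5g1 down. They are RefSeq windows of build GRCm38.p6, 250 bases before to 50 bases after the annotated start, 5′ to 3′ on the gene's strand. Capitals mark matches to the NRF1 motif (GCGCA, any base, GCGC) in Atp5g2 and Atp5g3, on either strand, and to the ERR-alpha motif TCAAGGTCA, here as its reverse complement, in Atp5g3.
Atp5g2, chr15:102670998-102671297, minus strand: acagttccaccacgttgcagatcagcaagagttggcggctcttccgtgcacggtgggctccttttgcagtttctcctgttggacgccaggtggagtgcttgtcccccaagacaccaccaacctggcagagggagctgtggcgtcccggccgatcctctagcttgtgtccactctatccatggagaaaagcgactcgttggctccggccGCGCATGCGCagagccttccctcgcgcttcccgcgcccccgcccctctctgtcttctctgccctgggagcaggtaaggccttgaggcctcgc
Atp5g1, chr11:96075582-96075881, minus strand: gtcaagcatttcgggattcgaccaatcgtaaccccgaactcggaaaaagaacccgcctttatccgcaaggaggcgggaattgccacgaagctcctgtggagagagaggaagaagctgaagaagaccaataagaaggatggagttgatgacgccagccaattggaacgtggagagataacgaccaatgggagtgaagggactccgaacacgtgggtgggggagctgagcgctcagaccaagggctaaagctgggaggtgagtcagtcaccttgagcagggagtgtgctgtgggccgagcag
Atp5g3, chr2:73911277-73911576, minus strand: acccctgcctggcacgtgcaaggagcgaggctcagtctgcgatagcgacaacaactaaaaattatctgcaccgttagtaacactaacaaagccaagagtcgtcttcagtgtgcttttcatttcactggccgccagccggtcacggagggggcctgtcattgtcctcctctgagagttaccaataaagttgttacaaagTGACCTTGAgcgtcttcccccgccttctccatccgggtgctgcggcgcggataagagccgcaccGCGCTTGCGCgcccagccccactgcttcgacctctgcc
The RefSeq start used for Atp5g2 lies 1305 bases inside the gene model of the count tables, and those of Atp5g1 and Atp5g3 lie 39 and 0 bases from its end. Windows were found by symbol for 63 of the 80 nuclear members. On either strand, the NRF1 motif was in 14 of 63 windows (22.2%) and in 4.60% of all 32851 windows; the GABPA motif CCGGAAGT in 5 (7.94%) and 3.89%; the YY1 motif AAGATGGC in 8 (12.7%) and 2.75%; TCAAGGTCA in 1 (1.59%) and 0.423%; and the TEAD motif GGAATG, read by the DNA-binding partners of YAP, in 7 (11.1%) and 14.7%. No motif matches overlapped in the members' windows. NRF1, GABPA, YY1 and ERR-alpha are known regulators of respiratory chain genes; a match in these letters is a description and not a binding site.

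Isoforms of complex IV also differed. Cox6a2 (ENSMUSG00000030785, chr7:128205435-128206387, minus strand, mm10), the heart and skeletal muscle form of subunit 6a, had 0.815, 0.709, 0.730 and 0.710 CPM in YAP-M, 3.14, 0.998 and 1.56 CPM in YMdIDR, 1.02 and 0.740 CPM in NSC-YAP, and 12.7, 10.7 and 11.4 CPM in SVZ. SVZ was well above all other libraries. This was the member with the largest decrease against SVZ in YAP-M (log2 fold change -3.96 ± 0.33, adjusted p 1.05e-06) and in YMdIDR (-2.60 ± 0.34, adjusted p 3.13e-05), and it had -3.71 ± 0.43 in NSC-YAP. Per length, it made up 0.619% of both 6a isoforms in YAP-M, 1.005% in YMdIDR, 0.314% in NSC-YAP and 4.27% in SVZ.

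Cox4i2, the isoform of subunit 4 known from lung and from low oxygen, had 1.67, 3.92, 1.55 and 2.76 CPM in YAP-M, 5.98, 3.17 and 1.78 CPM in YMdIDR, 0.0819 and 0.0411 CPM in NSC-YAP, and 1.81, 1.36 and 1.57 CPM in SVZ. YAP-M and YMdIDR overlapped SVZ, and NSC-YAP was near 0. The NSC-YAP libraries held 3 counts in all, or 0.0595 CPM without TMM scaling, against 1.38 CPM in the SVZ libraries, a ratio of 0.0431 with an exact binomial 95% interval of 0.00875 to 0.130 that covers counting error only. The call of Cox4i2 as higher in YMdIDR than in SVZ (adjusted p 0.0326) was lost without YMdIDR replicate 1, without any 1 SVZ library and with the replicate number as a block. Ndufa4l2, a paralogue of Ndufa4 induced by hypoxia, had 1.46 to 4.93 CPM in YAP-M, 2.67 to 7.19 CPM in YMdIDR, 1.80 and 1.93 CPM in NSC-YAP, and 2.78 to 3.15 CPM in SVZ, and was called only as higher in YMdIDR than in NSC-YAP (log2 fold change 1.33 ± 0.49, adjusted p 0.0300), a call lost without YMdIDR replicate 1 or either NSC-YAP library. Ndufa4 itself, counted by name with complex I and now placed in complex IV, had 69.9 to 82.2 CPM in YAP-M and 140 to 164 CPM in SVZ (-1.05 ± 0.09).

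Cox7a2l, which joins complexes III and IV into supercomplexes, overlapped between YAP-M and SVZ, with 116, 137, 105 and 134 CPM in YAP-M, 156, 180 and 154 CPM in YMdIDR, 231 and 211 CPM in NSC-YAP, and 125, 112 and 128 CPM in SVZ. It was called higher in YMdIDR (log2 fold change 0.42 ± 0.12, adjusted p 0.00599) and in NSC-YAP (0.86 ± 0.13, adjusted p 0.000132) than in SVZ. Cox7a2, its structural relative in complex IV, was called lower in all 3 groups (-0.78, -0.55 and -0.44), in NSC-YAP no longer without its replicate 2. Cox6b1 had -0.70 in YAP-M, -0.54 in YMdIDR and -0.11 in NSC-YAP, the last not called. Cox7b varied within groups, with 96.2, 87.4, 53.5 and 92.7 CPM in YAP-M, 70.0, 77.3 and 86.0 CPM in YMdIDR, 90.1 and 87.6 CPM in NSC-YAP, and 128, 177 and 256 CPM in SVZ. It was still called lower than SVZ in all 3 (-1.18, -1.26 and -1.07). Cox6b2 was high in 1 YMdIDR library alone, at 24.96, 3.67 and 2.49 CPM.

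Of the 4 untested members, Cox7a1, the muscle form of subunit 7a, had 7 to 13 counts per library in YAP-M, 15 to 21 in YMdIDR, 16 and 22 in NSC-YAP, and 21 to 31 in SVZ. Cox7b2, a testis form, had 3 counts in all in YAP-M, 2 in YMdIDR, 0 in NSC-YAP, which allows up to 0.0595 CPM without TMM scaling over both libraries, and 25 in SVZ. Cox8b, a heart and muscle form, had 15 counts in all in YAP-M, 30 in YMdIDR, 41 in NSC-YAP and 26 in SVZ, of which 26 of the 30 in YMdIDR came from 1 library. Cox8c, a testis form, had 0 counts in YAP-M, YMdIDR and SVZ, which allows up to 0.0320, 0.0449 and 0.0409 CPM without TMM scaling, and 2 counts in NSC-YAP.

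**Figure D5:**
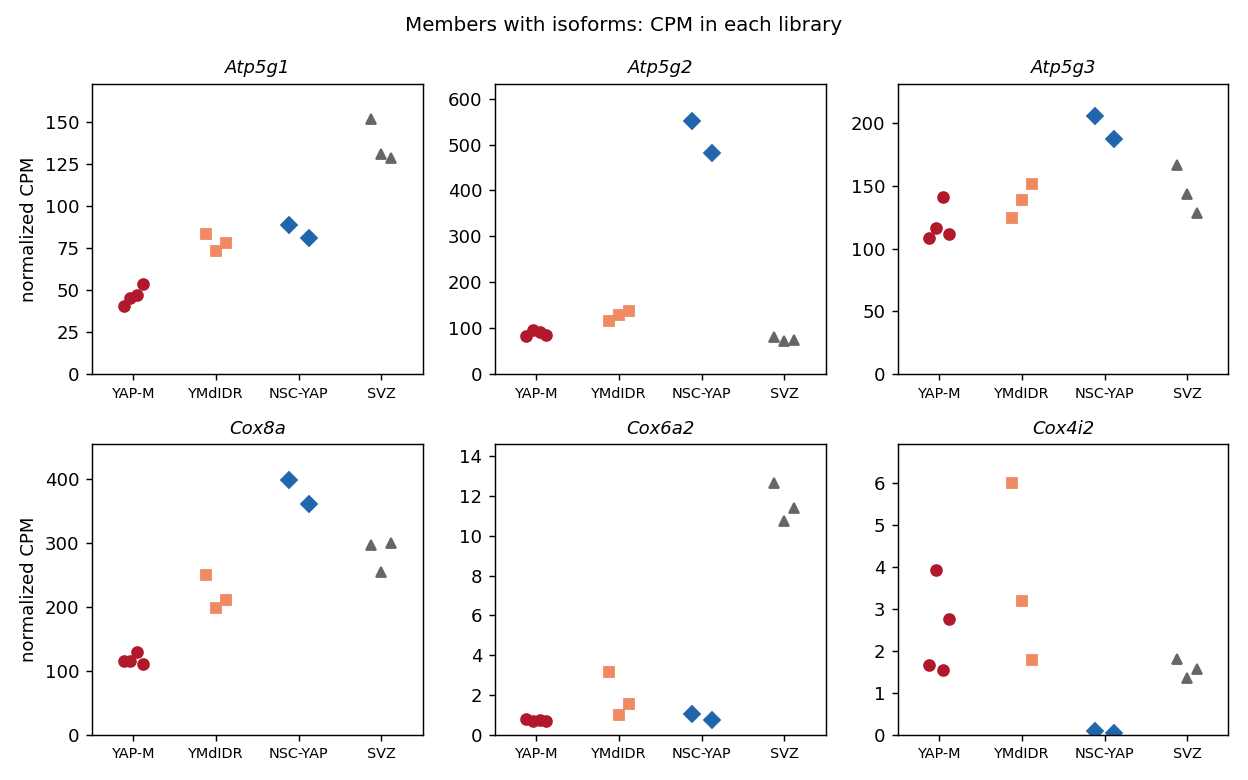
Normalized CPM (vertical axis, from 0) of 6 members in each library, with YAP-M, YMdIDR, NSC-YAP and SVZ from left to right. Atp5g2 is 481 to 551 CPM in NSC-YAP and at most 137 CPM elsewhere, Cox6a2 is 10.7 to 12.7 CPM in SVZ and at most 3.14 CPM elsewhere, and Cox8a is lowest in YAP-M at 111 to 130 CPM.

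The other genes of the pathway were read from lists. Complex II, which feeds electrons from succinate, had 3 of its 4 genes called lower in YAP-M, 3 lower in YMdIDR and 3 higher in NSC-YAP, each against SVZ, beside 41.0%, 39.5% and 30.1% of all genes tested in those directions. Sdha, its flavoprotein, averaged 146 CPM in YAP-M, 150 CPM in YMdIDR, 274 CPM in NSC-YAP and 309 CPM in SVZ, with log2 fold changes of -1.08 and -1.04 in the fusion groups. Sdhc, a membrane anchor, averaged 51.1 CPM in YAP-M, 69.3 CPM in YMdIDR, 220 CPM in NSC-YAP and 83.2 CPM in SVZ, and was called lower in YAP-M than in YMdIDR (-0.44 ± 0.08). Of 5 subunits and carriers with other names, all 5 were lower in YAP-M than in SVZ, beside the 41.0%. Cycs, the cytochrome c that links complexes III and IV, averaged 133 CPM in YAP-M, 160 CPM in YMdIDR, 75.3 CPM in NSC-YAP and 207 CPM in SVZ. Cyc1, the c-type cytochrome of complex III, averaged 64.0 CPM in YAP-M, 90.6 CPM in YMdIDR, 215 CPM in NSC-YAP and 87.1 CPM in SVZ. NSC-YAP thus held the lowest Cycs and the highest Cyc1.

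Assembly factors mostly shared the direction of the subunits in YAP-M. Against SVZ, 9 of 14 for complex I were lower and 1 higher, 5 of 6 for complex III lower, 10 of 17 for complex IV lower and 3 higher, and 2 of 3 for the ATP synthase lower, beside 41.0% lower and 38.0% higher of all genes tested. Uqcc2, which assists complex III assembly, averaged 13.8 CPM in YAP-M, 34.0 CPM in YMdIDR, 45.2 CPM in NSC-YAP and 30.9 CPM in SVZ, with a log2 fold change of -1.30 ± 0.17 for YAP-M against YMdIDR (adjusted p 0.000256). Coa3, of complex IV assembly, averaged 22.9 CPM in YAP-M and 39.2 CPM in YMdIDR (-0.78 ± 0.11). Atpaf1, which assembles the ATP synthase head, averaged 22.4 CPM in YAP-M, 19.3 CPM in YMdIDR, 15.4 CPM in NSC-YAP and 53.1 CPM in SVZ. Sco1, a copper chaperone of complex IV, stood higher in YAP-M (15.5 CPM) than in SVZ (8.05 CPM), with a log2 fold change of 0.94 ± 0.13. Ndufaf5 (-1.26), Tmem126b (-1.19) and Ttc19 (-1.51), of complex I and III assembly, were called lower in YAP-M than in SVZ.

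Genes of the mitochondrial ribosome, which translates the 13 organelle-encoded proteins, did not follow the subunits in the comparisons with SVZ. Against SVZ, the 77 tested held 25 higher and 16 lower calls in YAP-M, 48 higher and 5 lower in YMdIDR, and 32 higher and 13 lower in NSC-YAP. Of all genes tested, 38.0% were higher and 41.0% lower in YAP-M, 39.0% and 39.5% in YMdIDR, and 30.1% and 35.5% in NSC-YAP. Both shares of the ribosome list lay below these in YAP-M, while in YMdIDR and NSC-YAP the share higher lay above and the share lower below. The medians of the list were 0.10, 0.41 and 0.18. For YAP-M against YMdIDR, 38 of 77 (49.4%) were lower and 2 higher, beside 22.9% and 20.6% of all genes tested. The nuclear subunits had the same direction in that comparison, with 42.1% lower. Mrpl12, a large-subunit protein, averaged 31.2 CPM in YAP-M, 66.3 CPM in YMdIDR, 31.0 CPM in NSC-YAP and 22.02 CPM in SVZ, and Mrps21 averaged 20.3 CPM in YAP-M, 45.7 CPM in YMdIDR, 37.0 CPM in NSC-YAP and 35.8 CPM in SVZ. Both were highest in YMdIDR, with log2 fold changes of -1.09 ± 0.11 and -1.17 ± 0.10 for YAP-M against YMdIDR. Mrpl39 (1.14) was called higher and Mrps33 (-0.93) lower in YAP-M than in SVZ.

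Mitochondrial DNA maintenance and transcription had 4 of 20 higher and 5 lower in YAP-M against SVZ, and 1 higher and 7 lower in YAP-M against YMdIDR. Against SVZ both shares lay below the 38.0% and 41.0% of all genes tested, and against YMdIDR the share lower lay above 22.9% and the share higher below 20.6%. Polrmt, the mitochondrial RNA polymerase, averaged 17.2 CPM in YAP-M, 26.1 CPM in YMdIDR, 20.7 CPM in NSC-YAP and 21.1 CPM in SVZ (-0.60 ± 0.11 for YAP-M against YMdIDR). Mterf4 averaged 7.67 CPM in YAP-M and 12.98 CPM in YMdIDR (-0.76 ± 0.12), and Mterf2, a transcription termination factor family member, had -1.47 ± 0.28 in YAP-M against SVZ. Of 9 regulators of biogenesis, YAP-M had 5 higher and 2 lower calls against SVZ, with 5 and 3 in YMdIDR, and 5 and 2 in NSC-YAP, beside the shares of all genes tested given for the ribosome. Ppargc1a, among those lower in both fusion groups, the coactivator PGC-1alpha, averaged 6.18 CPM in YAP-M (3.99 to 11.2), 1.78 CPM in YMdIDR (0.816 to 2.67), 38.5 CPM in NSC-YAP (35.4 to 41.6) and 47.3 CPM in SVZ (41.5 to 53.3). Both fusion groups were far below the other 2, with log2 fold changes against SVZ of -2.94 ± 0.38 (adjusted p 2.75e-05) and -4.72 ± 0.47 (adjusted p 3.59e-06), and YAP-M was above YMdIDR (1.79 ± 0.43). Its relative Pprc1 had the opposite order, averaging 47.1 CPM in YAP-M, 82.9 CPM in YMdIDR, 30.9 CPM in NSC-YAP and 18.8 CPM in SVZ.

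In the citric acid cycle, which supplies NADH and succinate, 9 of 13 genes were lower and 3 higher in YAP-M than in SVZ, beside 41.0% and 38.0% of all genes tested. Ogdh, of the oxoglutarate dehydrogenase complex, averaged 129 CPM in YAP-M, 185 CPM in YMdIDR, 178 CPM in NSC-YAP and 317 CPM in SVZ. Mdh2, the malate dehydrogenase, averaged 184 CPM in YAP-M and 259 CPM in YMdIDR (-0.50 ± 0.08). Of 11 genes of the outer membrane, import and carriers, 6 were higher and 3 lower in YAP-M than in SVZ, beside 38.0% and 41.0%. Timm23 (0.96 ± 0.09) and Timm50 (0.97 ± 0.10), of the inner membrane import channel, were called higher in YAP-M than in SVZ, and Tomm40, the outer membrane channel, averaged 59.5 CPM in YAP-M and 92.7 CPM in YMdIDR (-0.64 ± 0.10).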

How the data were processed

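Bulk RNA-seq was deposited as 1 table per library of raw counts per gene, made by the authors. TopHat2 and the mm10 build are named in the submitters' processing notes; the counting program, its handling of strand and of reads with several alignments were not given in the sources used here, so counts of overlapping genes, near-identical copies and antisense partners are uncertain. TRIzol extraction and a TruSeq library kit are given per the labels' protocols. The 5 ChIP-seq and CUT&RUN samples of the 17 in the series were not used here. No deposited count column was left unmapped.

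Each table had 53090 rows. Of these, 124 were copies on scaffolds of genes that also have a chromosomal row. Of 123 copies with counts, 60 held the same counts as the chromosomal row in every library, so copies were dropped and not added. Counts were normalized with TMM and tested with edgeR 4.0.16 (glmQLFit, glmQLFTest, R 4.3.3), on genes that reached 1 CPM in 2 or more libraries, with 1 coefficient per group over all 12 libraries. CPM values in the text are TMM-normalized, except shares of counts. An SE is the size of the log2 fold change divided by the square root of F. The procedure was first run on simulated counts with changed genes in YAP-M alone, far fewer than were called in these data. That run thus does not show how it performs when this many genes differ. Alternatives used limma 3.58.1 and DESeq2 1.42.0 as well; their effects stand in the closing section. Floors are 3 counts and cover counting error only.

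The members, gene lists and tests were chosen with earlier results of these data known. Named members were all 13 mitochondrially encoded ones, the isoform sets, the 7 nuclear core subunits of complex I, and per comparison and complex the called member with the largest change, no overlap of groups and at least 5 CPM in the higher group; from each pathway list, up to 2 genes with the smallest adjusted p in YAP-M against SVZ and in YAP-M against YMdIDR. Members named as complete sets of a small count were chosen after their values were seen. Some genes that these rules name are not reported here.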

Additional observations from a re-analysis of the deposited data

Results flagged for a closer look

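In YAP-M, the group with 4 libraries, 3 of 49 named members had 1 library set apart from the other 3 by a gap above the 95% critical value of Dixon's test for 4 samples; about 1 in 20 groups is marked by chance. mt-Nd3 had 556 CPM in YAP-M replicate 3, against 470 to 481 CPM in the other YAP-M libraries. Ndufs3 had 48.9 CPM in replicate 1, against 51.0 to 51.4 CPM in the others, a difference that is small beside its distance from SVZ. Cox7b2 had 0.112 CPM in replicate 4 and 0 in the others, at the level of single counts. The cause was not tested.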

How the results depend on the processing

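Counts of called members were recomputed under 10 other settings and with each library left out. Where a number below differs from the report, the cause was not tested unless stated. Quantile normalization with limma assigns equal values to equal ranks; it gave 6, 7 and 6 mitochondrially encoded members lower than SVZ in YAP-M, YMdIDR and NSC-YAP, 3 higher and 0 lower for YAP-M against YMdIDR, and 3 higher and 0 lower for YAP-M against NSC-YAP. It reversed mt-Co2 (0.0697, 0.0682 and 0.0558 in YAP-M, YMdIDR and NSC-YAP against SVZ, 0.014 in YAP-M against NSC-YAP), mt-Nd4 in YAP-M against NSC-YAP (0.35, adjusted p 0.0152), mt-Nd5 (0.279 in NSC-YAP against SVZ), mt-Cytb (0.0794 in YAP-M and 0.262 in NSC-YAP against SVZ) and Cox6a2 (-0.0174 in YMdIDR against NSC-YAP). It also moved the median of all genes to 0.18 for NSC-YAP against SVZ, from -0.10, to -0.14 for YAP-M against NSC-YAP, from 0.10, and to -0.09 for YMdIDR against NSC-YAP, from 0.13. For YAP-M against SVZ, nuclear members higher were 4 with library sizes without mitochondrially encoded genes and 4 without their chromosome 1 copies as well (a setting chosen after seeing the data). For YAP-M against YMdIDR, nuclear members higher were 2 with no filter on low counts and 2 with the compared groups alone. For YAP-M against NSC-YAP, nuclear members higher were 1 at a minimum of 5 CPM. Mitochondrially encoded members higher were 1 for YAP-M against YMdIDR with median-ratio size factors and 1 with DESeq2, and 1 for YAP-M against NSC-YAP with median-ratio size factors, 1 with DESeq2 and 1 with the compared groups alone. Adding scaffold copies back, also chosen after seeing the data, moved no count by over 1.5 times.

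Replicate numbers are shared between groups, but same-numbered libraries deviated together only weakly (correlations from -0.097 to 0.386), so the numbers do not pair them. With the replicate number as a block, nuclear members higher in YAP-M against SVZ were 1, mitochondrially encoded members higher and lower in YAP-M against YMdIDR 1 and 4, and lower in YMdIDR against NSC-YAP 5.

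Leaving out 1 library at a time gave the following ranges of counts. Nuclear members higher and lower were 0 to 3 and 59 to 67 for YAP-M against SVZ (0 without YAP-M replicate 2 or SVZ replicate 2), 3 to 8 and 40 to 49 for YMdIDR against SVZ (3 without SVZ replicate 3, 8 without YAP-M replicate 1 or YMdIDR replicate 2), 13 to 24 and 15 to 24 for NSC-YAP against SVZ (13 without NSC-YAP replicate 1), 4 to 5 and 26 to 32 for YAP-M against YMdIDR, 1 to 3 and 51 to 56 for YAP-M against NSC-YAP, and 2 to 7 and 35 to 47 for YMdIDR against NSC-YAP (1 and 2 higher without NSC-YAP replicate 2). Mitochondrially encoded members lower were 13 in each case for YAP-M and for YMdIDR against SVZ and 12 to 13 for NSC-YAP against SVZ, with 0 higher. They were 0 to 1 higher and 1 to 2 lower for YAP-M against YMdIDR, 0 to 2 and 5 to 6 for YAP-M against NSC-YAP (2 higher without SVZ replicate 3), and 0 to 1 and 2 to 5 for YMdIDR against NSC-YAP (5 lower without SVZ replicate 3). Leaving out 1 NSC-YAP library assumes that the other varies like the rest.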
